A study of Mus musculus with 8 samples.

Results

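The genes described here are the matrix metalloproteinases (MMPs), the ADAMTS proteases, their non-catalytic ADAMTS-like relatives and the tissue inhibitors of metalloproteinases (TIMPs), as transcribed in GLI2+ stromal cells of the adult mouse lung. Members were the genes whose name in the authors' deposited table starts with Mmp, Timp, Adamts or Adamtsl and goes on with its number, 47 genes of the 30127 in that table: 19 Mmp, 19 Adamts, 5 Adamtsl and 4 Timp genes. The 8 sequenced samples were of adult mice, 4 per group, with a different number in each title; whether a sample pools animals is not given, and p-values measure the spread between these samples. All carried Gli2creERT2-tdt:R26RYFP, in which a tamoxifen-inducible Cre made by Gli2-expressing cells turns on a yellow fluorescent reporter (YFP). The SmoM2 group also carried the SmoM2 allele (Gli2creERT2-tdt:R26RYFP/SmoM2), an always-active form of the Hedgehog transducer Smoothened. Per the labels, the SmoM2 mice received intraperitoneal tamoxifen on 5 days, with a daily dose of 200 mg per kg. The dosing of the controls and the time from tamoxifen to sort are not given in the sources used here. Whole lungs were digested with collagenase and dispase, and live YFP+ cells were sorted, so each library can mix the lung cell types that had used Gli2. Other cells or RNA carried through the sort cannot be told apart from these here. The libraries are named by group and by the number in the deposited column, which is not tied to an animal.

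Metalloproteinases of these families cut proteins outside the cell with a zinc ion in their active site. MMPs are made as inactive precursors and cleave collagens, elastin, other proteases and growth factor carriers. ADAMTS enzymes carry thrombospondin repeats that hold them in the matrix, where some cut proteoglycans such as aggrecan and versican, some trim procollagens, and some act around fibrillin microfibrils. ADAMTS-like proteins have the repeats without the protease, and TIMPs plug the active sites. In lung, fibroblasts are a main source of these transcripts, while several MMPs are better known from neutrophils, macrophages or epithelium.

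Estimated counts summed to between 91.6 and 111.6 M units in a library, which is 18.3 to 22.3 M fragments if 1 fragment adds 5 units, and the 47 genes took 1.28% to 1.52% of the units. Values are given as CPM, the count scaled to the library's effective size, with SD over n = 4 libraries. Where values are paired, those of control libraries 1 to 4 stand first and those of SmoM2-labelled libraries 1 to 4 second. Fibroblast markers summed to 44076 to 57782 CPM in the controls and 45106 to 69192 CPM in the other group, and all 12 of 12 passed the filter on low counts. The log2 fold change lay below 0 for 8 of 8 mesothelial markers (3 called by DESeq2: Msln, Upk3b and Gpm6a) and for 7 of 10 endothelial markers (1 called by DESeq2: Esam), with 0 of either called by edgeR. The groups did not overlap for 4 of the 8 mesothelial markers, against 2.44% of all genes tested. The mesothelial markers summed to 268 to 471 CPM in the controls and 96.3 to 211 CPM in the other group. Also below 0 were 10 of 12 epithelial and 7 of 8 smooth muscle markers, with 0 called by edgeR or DESeq2. Gli1, the transcription factor that Hedgehog signalling induces, was at 99.3 ± 32.9 and 101 ± 21.5 CPM in the 2 groups. Smo itself was at 124 ± 13.3 and 129 ± 8.80 CPM, Ptch1, the Hedgehog receptor, at 173 ± 57.4 and 159 ± 50.8 CPM and Hhip, a secreted Hedgehog-binding protein, at 353 ± 101 and 414 ± 198 CPM. The log2 fold change of Gli1 had an interval from -0.54 to 0.60. That of Ptch1 ran from -0.74 to 0.51 and that of Hhip from -0.55 to 1.01. EdgeR called 0 of these 3 target genes, but also 0 of the 20162 genes tested, so this count does not show whether the pathway responded. The second group is therefore called SmoM2-labelled, and every direction given is one between labels. Whether reads of the SmoM2 allele were counted under Smo is not given in the sources used here.

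No member of the family passed the test for a difference between the groups. Of the 47 genes, 42 passed the filter on low counts, and 0 of the 42 were called by edgeR's quasi-likelihood test, where 0% of the 20162 genes tested were called. Every member had a Benjamini-Hochberg adjusted p of at least 0.9999. DESeq2 also called 0 members against 0.285% of the 24185 genes it tested, and in the authors' deposited table all 47 had an adjusted p of 1, against 0.0498% of genes called. At an unadjusted p under 0.05 edgeR counted 1 member, Mmp8, or 2.38% of the 42, where 3.75% of all genes did, 1.74% higher and 2.01% lower. The 4 control and 4 SmoM2-labelled libraries overlapped for all 42 members, while 2.44% of all genes had groups that did not overlap. The log2 fold change lay above 0 for 27 members and below 0 for 15, with a median of 0.09 against -0.00 over all genes tested. By family, 10 of 16 Mmp, 10 of 17 Adamts, 4 of 5 Adamtsl and 3 of 4 Timp genes had an edgeR log2 fold change above 0, Timp1 by 0.01.

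**Figure D1:**
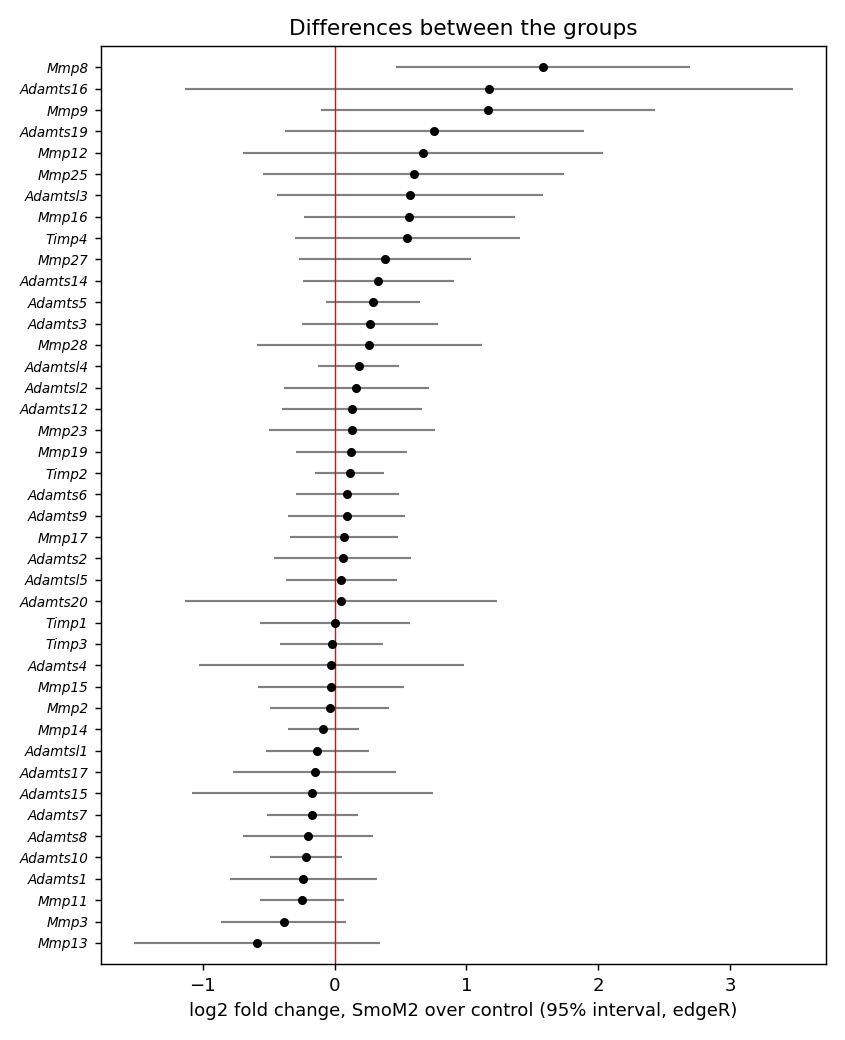
Log2 fold change of SmoM2-labelled over control libraries (x axis) for the 42 tested members (y axis, ordered by fold change). Points are edgeR estimates and bars are 95% intervals. All bars but that of Mmp8 cross 0, and the widest bar is that of Adamts16, a gene below 1 CPM.

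The intervals say how large a change the data leave room for. For 27 of the 42 members the 95% interval lay within a 2-fold change in either direction, and for 17 of these within a 1.5-fold change. Timp2 had an interval from -0.15 to 0.37 on the log2 scale, Mmp14 from -0.35 to 0.18 and Adamts10 from -0.49 to 0.05. The interval of Adamts4 ran from -1.03 to 0.98 and that of Adamts15 from -1.08 to 0.75. For both, the lowest and the highest of the 8 libraries were both controls.

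**Figure D2:**
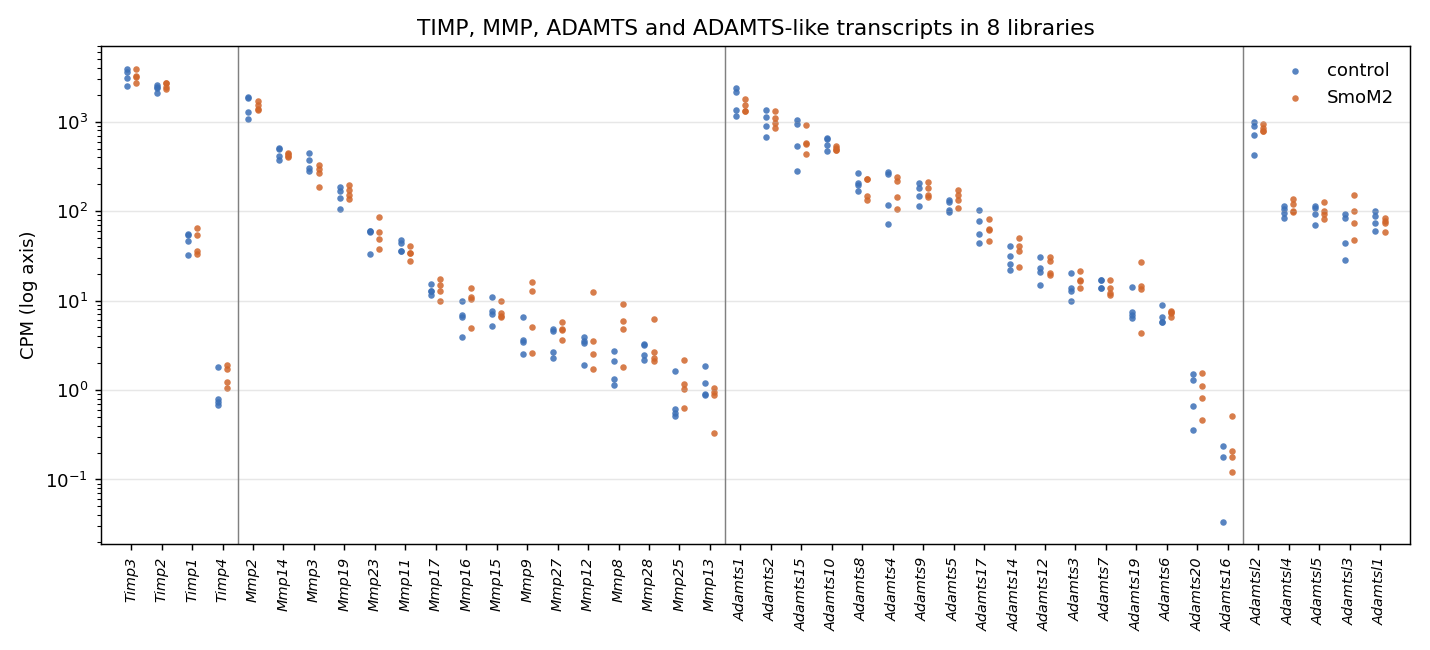
Level in CPM (log axis) of the 42 tested members in each of the 4 control (blue) and 4 SmoM2-labelled (orange) libraries, grouped as Timp, Mmp, Adamts and Adamtsl genes and ordered by mean. Each point is 1 library, and the single library at 0 (control 3, Adamts16) is not drawn. The groups overlap for every gene, and levels span from 3923 CPM (Timp3 in control 2) to below 1 CPM.

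Among the inhibitors, levels per kb of exon were highest for Timp2 (632 CPM per kb) and Timp3 (401), lower for Timp1 (52.8) and lowest for Timp4 (0.21). Timp3, the TIMP that binds to the matrix and also inhibits several ADAMTS enzymes (ENSMUSG00000020044, mm10 chromosome 10 from 86300372 to 86349506), was measured at 3095, 3923, 3609 and 2528 CPM in control libraries 1 to 4 and at 3859, 2727, 3226 and 3158 CPM in SmoM2-labelled libraries 1 to 4. Control 2 was the highest and control 4 the lowest of the 8. Timp2, which inhibits MMPs and also takes part in the activation of pro-MMP2 by MMP14 (ENSMUSG00000017466, chromosome 11 from 118301069 to 118355740), stood at 2383, 2559.8, 2418 and 2099 CPM in the controls and 2729, 2715, 2316 and 2471 CPM in the SmoM2-labelled libraries. It had the smallest spread of the members of at least 5 CPM, with an SD of 0.12 log2 units over 8 libraries. Timp1, an inhibitor that many cells induce in injury, read 53.7, 55.3, 45.9 and 32.4 CPM in the controls and 54.3, 64.6, 33.4 and 35.6 CPM in the SmoM2-labelled group. Control 4, SmoM2 3 and SmoM2 4 were the low ones, in both groups. Timp4 ranged from 0.688 to 1.88 CPM. The log2 fold changes were -0.02 (from -0.41 to 0.37) for Timp3, 0.11 (from -0.15 to 0.37) for Timp2, 0.01 (from -0.56 to 0.57) for Timp1 and 0.55 (from -0.30 to 1.41) for Timp4.

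All of the inhibitor genes except Timp2 lie inside synapsin genes on the opposite strand: Timp1 in Syn1, Timp3 in Syn3 and Timp4 in Syn2. The library kit in the labels is not stated to keep the strand, so reads from shared exon bases cannot be assigned to a strand. For Timp3, 21.3% of its exon bases are also exon of Syn3, whose mean was 4.55 CPM in the controls and 3.34 CPM in the other group. Timp1 shares no exon base with Syn1. Timp4 shares 1.53% with Syn2, a gene at 34.9 and 24.5 CPM.

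Among gelatinases, which digest denatured collagen and basement membrane collagen, Mmp2 was at 448 CPM per kb of exon and Mmp9 at 1.86. Mmp2 (ENSMUSG00000031740, chromosome 8 from 92827291 to 92853420) was at 1855, 1909, 1286 and 1073 CPM in the controls and 1682, 1396, 1348 and 1545 CPM in the SmoM2-labelled libraries. All 4 SmoM2-labelled values fell inside the range of the controls, and control 4 was again the lowest. The means of 1531 ± 416 and 1493 ± 151 CPM gave a log2 fold change of -0.04 (from -0.49 to 0.42). Mmp14, the membrane-anchored protease that activates pro-MMP2 (chromosome 14 from 54431612 to 54445364), was at 418, 513, 496 and 371 CPM and 403, 438, 441 and 413 CPM. The SmoM2-labelled libraries lay within a narrow band inside the control range, with means of 449 ± 66.7 and 424 ± 18.4 CPM and a log2 fold change of -0.09.

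Per kb of exon Mmp14 averaged 73.2 CPM, while the other tested membrane-type MMPs lay between 0.196 (Mmp25) and 2.04 (Mmp17). Mmp15, known from epithelial cells, ranged from 5.25 to 11.03 CPM over the 8 libraries. Its highest values were in control 4 and SmoM2 3, the libraries with the highest summed epithelial markers (1637 and 1067 CPM, against 313 to 511 CPM in the other 6), and the part of epithelial cells in it was not tested. The GPI-anchored Mmp17 ranged from 9.92 to 17.6 CPM and Mmp25 from 0.518 to 2.15 CPM. Mmp16 was at 6.49, 9.83, 6.98 and 3.96 CPM in the controls and 10.54, 11.1, 4.95 and 13.8 CPM in the SmoM2-labelled group. Control 2 and SmoM2 1, 2 and 4 held its 4 highest values, and the same 4 libraries held the highest summed cartilage markers (1208 to 2162 CPM, against 149 to 1062 CPM in the others) and the highest summed fibroblast markers. The part of either cell type in the Mmp16 level was not tested. Its log2 fold change was 0.57 (from -0.24 to 1.37), and 0.38 without control 4 or without SmoM2 4. Mmp24, a membrane-type enzyme known from neurons, was not tested, since 5 of 8 libraries were at 0.

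Among stromelysins, Mmp3, which degrades proteoglycans and fibronectin and activates other MMPs, was at 172 CPM per kb of exon and Mmp10 at 0.0323. Mmp3 (ENSMUSG00000043613, chromosome 9 from 7445822 to 7455975) was at 446, 283, 299.9 and 375 CPM in the controls and 267, 329, 295 and 184 CPM in the SmoM2-labelled group. Control 1 was the highest and SmoM2 4 the lowest, and control 2 and control 3 lay within the range of the other group. With means of 351 ± 75.2 and 269 ± 62.1 CPM, the log2 fold change was -0.39 with an SE of 0.21 and an interval from -0.86 to 0.09, the lowest of the members above 20 CPM. It was -0.25 without control 1 and -0.24 without SmoM2 4. Immediate early genes, which include AP-1 subunits, were also lowest in SmoM2 4, with a mean log2 CPM of 9.08. The next lowest were control 4 (9.76) and control 1 (9.81), which held the highest Mmp3 values. Control 3 (10.40) and SmoM2 1 (10.21) were the highest, with Mmp3 at 299.9 and 267 CPM. Of the 9 immediate early genes, all lay below 0 in log2 fold change with a median of -0.15 and 0 called by edgeR. Fos and Egr1 had the highest CPM. Fos was at 5914, 5187, 5246 and 2054 CPM in the SmoM2-labelled libraries and at 5453, 4802, 6481 and 5098 CPM in the controls. Their part in the Mmp3 value was not tested. Mmp11, a furin-activated stromelysin of stromal cells, stood at 35.8, 47.2, 44.5 and 35.4 CPM and 28.04, 40.3, 34.4 and 34.4 CPM, a log2 fold change of -0.25 with an SE of 0.14. Only control 2 and control 3 lay above all SmoM2-labelled values. Mmp10 never exceeded 0.137 CPM and was at 0 in 4 libraries.

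Mmp3 belongs to a gene cluster on chromosome 9 in which Mmp13, Mmp12, Mmp3, Mmp10, Mmp8 and Mmp27 lie in this order on the plus strand, with 288 kb between the first and the last. In windows from 250 bases before to 50 after the RefSeq start (GRCm38.p6), the AP-1 motif TGANTCA, searched on both strands, was found for 4 of the 32 members that have a window (Mmp3, Mmp10, Mmp12 and Mmp13, all of this cluster) and in 7.81% of all 32851 windows. A TATAAA box on the gene strand was found for 7 of the 32 and in 8.32% of all windows. Printed here are 3 of the cluster windows and, for contrast, that of Adamts1, the ADAMTS gene with the highest level per kb, which holds a TATAAA but no TGANTCA. Capitals mark these motifs, and each sequence reads 5′ to 3′ on the strand of the gene, which is plus for the cluster and minus for Adamts1.
Mmp3, chr9:7445572-7445871: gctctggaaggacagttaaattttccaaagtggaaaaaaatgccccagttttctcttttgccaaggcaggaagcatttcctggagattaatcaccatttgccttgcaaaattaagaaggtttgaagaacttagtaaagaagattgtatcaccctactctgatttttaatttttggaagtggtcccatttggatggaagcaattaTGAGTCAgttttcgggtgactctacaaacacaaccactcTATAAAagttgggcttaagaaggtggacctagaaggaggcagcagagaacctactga
Mmp10, chr9:7502092-7502391: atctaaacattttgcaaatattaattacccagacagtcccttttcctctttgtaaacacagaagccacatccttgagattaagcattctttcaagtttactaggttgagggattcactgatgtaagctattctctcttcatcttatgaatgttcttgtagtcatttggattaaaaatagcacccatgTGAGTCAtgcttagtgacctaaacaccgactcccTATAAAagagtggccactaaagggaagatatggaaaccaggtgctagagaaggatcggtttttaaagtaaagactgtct
Mmp13, chr9:7272264-7272563: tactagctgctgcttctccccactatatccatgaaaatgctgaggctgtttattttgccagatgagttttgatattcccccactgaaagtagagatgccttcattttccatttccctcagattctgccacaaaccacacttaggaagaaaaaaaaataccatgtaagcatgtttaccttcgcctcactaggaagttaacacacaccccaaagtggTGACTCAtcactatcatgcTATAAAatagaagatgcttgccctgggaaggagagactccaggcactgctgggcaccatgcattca
Adamts1, chr16:85803064-85803363: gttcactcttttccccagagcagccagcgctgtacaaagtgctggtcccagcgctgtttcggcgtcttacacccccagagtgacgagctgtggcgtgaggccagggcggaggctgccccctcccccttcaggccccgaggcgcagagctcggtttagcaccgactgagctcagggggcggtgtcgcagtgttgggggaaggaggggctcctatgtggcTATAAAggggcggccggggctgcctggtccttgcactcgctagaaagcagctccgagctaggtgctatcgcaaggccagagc
A GC box, GGGCGG on either strand and not marked, was found for 22 of the 32 windows and in 35.7% of all windows. The AP-1 letters begin 46 bases before the start in Mmp3, 63 in Mmp10, 35 in Mmp13 and 44 in Mmp12. The levels of these genes differed: Mmp3 averaged 172 CPM per kb of exon, Mmp12 0.572, Mmp13 0.375 and Mmp10 0.0323. The GLI consensus TGGGTGGTC, the motif of the Hedgehog transcription factors, was found on neither strand of any of the 32 member windows and in 0.253% of all windows.

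Mmp8, Mmp9 and Mmp25, known from leukocytes, were highest in the libraries with the most neutrophil marker RNA. Mmp8, the collagenase stored in neutrophil granules (ENSMUSG00000005800, chromosome 9 from 7558456 to 7568485), read 1.31, 1.15, 2.70 and 2.12 CPM in the controls and 1.80, 9.25, 4.76 and 5.97 CPM in the SmoM2-labelled group. SmoM2 2, 3 and 4 exceeded all controls, while SmoM2 1 lay among them. The means were 1.82 ± 0.726 and 5.44 ± 3.08 CPM and the log2 fold change 1.58 with an SE of 0.49 and an interval from 0.46 to 2.69, yet the adjusted p was 0.9999 in edgeR and 0.148 in DESeq2. Mmp9, a gelatinase of neutrophils and macrophages, was at 3.48, 3.65, 6.58 and 2.53 CPM and 2.60, 12.7, 5.10 and 16.02 CPM. SmoM2 2 and SmoM2 4 stood above all others and SmoM2 1 was near the bottom, with a log2 fold change of 1.16 (from -0.10 to 2.43), and of 0.74 without SmoM2 4. Mmp25, called leukolysin, had its 4 highest libraries in common with Mmp8 and Mmp9: control 3 and SmoM2 2, 3 and 4. Of all genes tested, 1.73% had this set.

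Neutrophil markers moved with these genes. Their summed level was 13.2, 14.5, 63.1 and 23.2 CPM in control libraries 1 to 4 and 17.7, 149, 75.9 and 128 CPM in SmoM2-labelled libraries 1 to 4, so that the same 4 libraries were highest. They were also the 4 with the highest summed macrophage markers. All 8 of 8 neutrophil markers had a log2 fold change above 0, with a median of 1.79, 0 called by edgeR or DESeq2 and 3 at an unadjusted p under 0.05 in edgeR. None of the 8 was at 0 in any library. The part of neutrophils or macrophages in the Mmp8, Mmp9 and Mmp25 values was not tested, and in sorted bulk RNA the number of such cells cannot be told from the RNA per cell. Mmp12, the macrophage elastase, was at 3.97, 3.35, 1.91 and 3.56 CPM and 1.71, 3.53, 2.54 and 12.5 CPM, with SmoM2 4 far above the rest. The summed macrophage markers were also highest there. They were at 524, 475, 657 and 632 CPM in the controls and 419.9, 742, 676 and 1476 CPM in the SmoM2-labelled group. Among the other 7 libraries the order of Mmp12 differed from that of the markers, though SmoM2 1 was lowest for both. Control 3 (657 CPM) had Mmp12 at 1.91 CPM, and control 1 (524 CPM) had it at 3.97 CPM. None of the 10 markers was at 0 in any library. All 10 had a log2 fold change above 0, with a median of 0.67 and 0 called by edgeR. The part of macrophages in the Mmp12 level was not tested. Mmp13, a collagenase of bone and cartilage, was highest in control 4 (1.83 CPM), where the summed cartilage markers were lowest (149 CPM), and lowest in SmoM2 1 (0.331 CPM), where they were highest (2162 CPM).

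**Figure D3:**
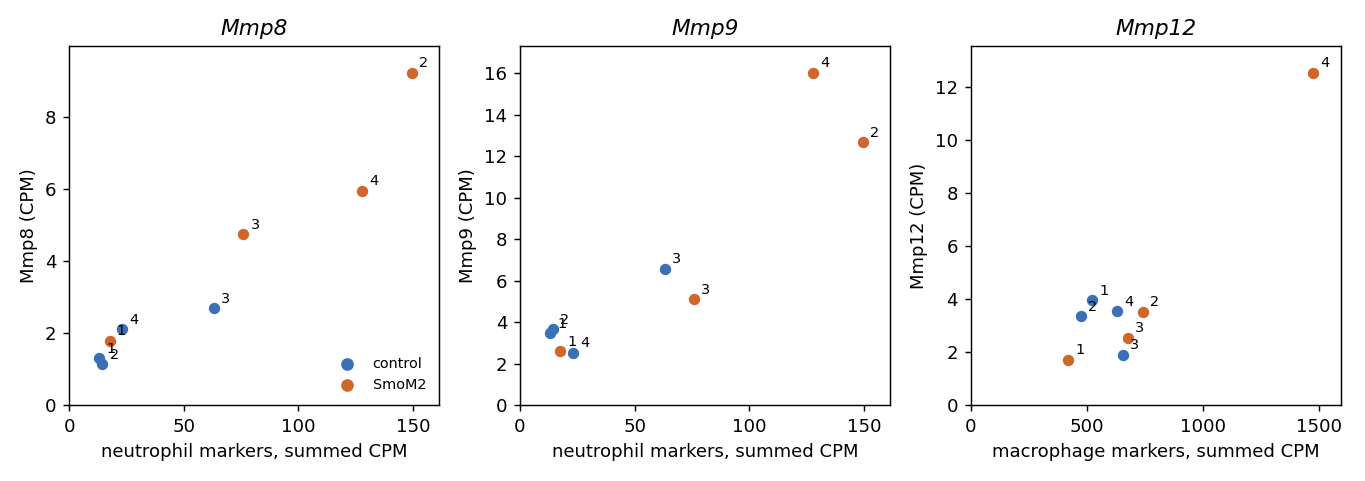
Mmp8 and Mmp9 (CPM, y axis) against the summed CPM of 8 neutrophil markers, and Mmp12 against that of 10 macrophage markers. Each point is 1 library, numbered within its group. SmoM2 2 and SmoM2 4 have the highest neutrophil sums and the highest Mmp9, and SmoM2 4 the highest macrophage sum and Mmp12. Among the other libraries the order of Mmp12 differs from that of the macrophage sum.

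The remaining MMPs included 2 with stromal levels above 20 CPM. Mmp19, which cleaves basement membrane proteins, was at 185, 105, 139 and 168 CPM in the controls and 136, 151, 171 and 194 CPM in the SmoM2-labelled group. Control 2 was the lowest. Of the exon bases of Mmp19, 28.3% are shared with genes on the opposite strand, chiefly Tmem198b at 29.95 and 40.1 CPM. Mmp23, a membrane-bound MMP without the usual haemopexin domain, was at 59.3, 59.9, 58.2 and 32.7 CPM and 85.6, 58.0, 38.0 and 48.9 CPM. Control 1, 2 and 3 were nearly equal and control 4 was set apart below them, while SmoM2 1 was the highest of all. Mmp27 ranged from 2.29 to 5.71 CPM and Mmp28, an epithelial MMP, from 2.11 to 6.26 CPM. Unlike Mmp15, Mmp28 was lowest in SmoM2 3, where the epithelial markers summed to 1067 CPM. It was highest in SmoM2 1, where they summed to 511 CPM. Mmp21 was at 0 in 5 of 8 libraries and was not tested. Mmp1a, Mmp1b, Mmp7 and Mmp20 are not in the authors' table and are listed at 0 in all 8 columns of the count table.

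The proteoglycan-cleaving ADAMTS genes included Adamts4 and Adamts15, 2 of the 6 with the largest spread between libraries among the members of at least 5 CPM. Adamts1, which cuts aggrecan and versican (ENSMUSG00000022893, chromosome 16 from 85793827 to 85803113), was at 1364, 2163, 2357 and 1150.2 CPM in the controls and 1323, 1814, 1309.7 and 1522 CPM in the SmoM2-labelled group. Control 2 and control 3 were the highest of the 8 and control 4 the lowest, so the control group enclosed the other. Adamts4, an aggrecanase induced by inflammatory cytokines (ENSMUSG00000006403, chromosome 1 from 171250421 to 171260637), was at 117, 260.4, 271 and 71.2 CPM and 142, 240.5, 107 and 217 CPM. Within the controls it differed 3.80-fold between library 3 and library 4, while the group means of 179.8 ± 101 and 177 ± 62.7 CPM were close. Adamts5, the other main aggrecanase (chromosome 16 from 85856173 to 85901828), stood at 103, 133, 127 and 98.8 CPM and 134, 151, 109.8 and 170.3 CPM. Its log2 fold change was 0.29 with an SE of 0.16 and an interval from -0.07 to 0.64, with SmoM2 1, 2 and 4 above all controls, SmoM2 1 by less than 1 CPM, and SmoM2 3 among them. Without SmoM2 4 it was 0.19.

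Adamts1 and Adamts5 are 53.1 kb apart on the same strand of chromosome 16, and their library orders differed: control 3 was the highest of 8 for Adamts1 and only the fifth for Adamts5. Adamts15 and Adamts8 form another pair on chromosome 9, 20.1 kb apart and on opposite strands. Adamts15, a versican-cleaving protease, was at 1043, 281, 529 and 945 CPM in the controls and 441, 577, 912 and 560.1 CPM in the SmoM2-labelled group. Control 1, control 4 and SmoM2 3 were the highest and control 2 the lowest, a 3.71-fold range. Adamts8, known for high expression in lung, was at 208, 169, 198 and 270.2 CPM and 149, 227, 226 and 132 CPM, with control 4 the highest and SmoM2 4 the lowest. Both pair members shared the same 4 highest libraries, control 1, control 4, SmoM2 2 and SmoM2 3, a set that 2.29% of all genes tested had. Adamts9, a versican-cleaving enzyme, stood at 147, 115, 183 and 204 CPM and 211, 145, 183 and 152 CPM, and 12.0% of its exon bases are shared with opposite-strand genes. Adamts20 stayed between 0.355 and 1.54 CPM.

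Procollagen N-proteinases, which cut the amino-terminal propeptide from fibrillar procollagens, had their highest level per kb in Adamts2 (110.4 CPM per kb, against 6.52 for Adamts14 and 2.92 for Adamts3). It was measured at 1350.0, 1116, 894 and 674 CPM in the controls and 1321, 1090.2, 841 and 957 CPM in the SmoM2-labelled group (ENSMUSG00000036545, chromosome 11 from 50602084 to 50807573). Control 1 and SmoM2 1 were the highest and control 4 the lowest. The fibrillar collagen gene Col3a1 was lowest in control 4 too. Col3a1 was at 9699, 8031, 6091 and 4248 CPM in the controls and 7830.3, 6888, 5344 and 7569.7 CPM in the SmoM2-labelled libraries. Adamts14 was at 31.6, 25.8, 22.0 and 40.5 CPM and 36.3, 24.0, 40.5 and 50.3 CPM, where control 4 was the highest control and SmoM2 4 the highest library. Adamts3 ranged from 10.01 to 21.5 CPM and was lowest in control 3. The log2 fold changes of the 3 were 0.06 (from -0.46 to 0.58), 0.33 (from -0.24 to 0.91) and 0.27 (from -0.24 to 0.78) for Adamts2, Adamts14 and Adamts3. That of Adamts14 lay between 0.16 (without SmoM2 4) and 0.51 (without control 4) with single libraries left out.

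Of the enzymes tied to fibrillin microfibrils, Adamts10, whose mutation in people causes a Weill-Marchesani syndrome, was at 551, 654, 643 and 474 CPM in the controls and 484, 479, 529 and 502 CPM in the SmoM2-labelled group. Control 1 to 3 lay above all SmoM2-labelled libraries and control 4 below them. Its means of 580.5 ± 85.1 and 499 ± 22.6 CPM gave a log2 fold change of -0.22 with an SE of 0.12, and the adjusted p in edgeR was 0.9999. Adamts17, linked to the same kind of syndrome, stood at 103, 56.1, 44.2 and 77.4 CPM and 62.4, 61.2, 82.6 and 46.7 CPM, highest in control 1. Adamts6, a close relative of Adamts10, ranged from 5.76 to 8.85 CPM.

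The pair that cleaves cartilage oligomeric matrix protein, Adamts7 and Adamts12, was at 2.31 and 2.15 CPM per kb of exon. Adamts12 was at 22.9, 30.8, 20.8 and 14.9 CPM in the controls and 30.6, 20.5, 19.5 and 27.5 CPM in the SmoM2-labelled group, with control 2 and SmoM2 1 the highest. Adamts7 ranged from 11.6 to 17.0 CPM and shares 1.94% of its exon bases with Tbc1d2b, a gene of 201.6 and 196 CPM. Adamts19, an enzyme of few known substrates, was at 6.83, 7.55, 14.3 and 6.35 CPM and 13.6, 14.5, 4.31 and 26.7 CPM. SmoM2 4 was the highest and SmoM2 3 the lowest of the 8, so the SmoM2-labelled group held both ends of the range. Its log2 fold change was 0.75 (from -0.38 to 1.89), and 0.30 without SmoM2 4. Adamts16 did not exceed 0.516 CPM. Adamts13, the protease of von Willebrand factor, was at 0 in 4 libraries, and Adamts18 was above 0 in 1 library, control 4, so neither was tested.

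The ADAMTS-like gene with the highest level per kb was Adamtsl2, whose product binds fibrillin and a latent TGF-beta binding protein (ENSMUSG00000036040, chromosome 2 from 27079379 to 27108981). It stood at 896, 422, 703 and 1003 CPM in the controls and 948, 791, 853 and 796 CPM in the SmoM2-labelled group. Control 2 was low, at less than any other library, and the SmoM2-labelled libraries varied less than the controls, with group values of 756 ± 255 and 847 ± 72.7 CPM. Adamtsl4, which promotes microfibril assembly, was at 113, 84.4, 96.3 and 106 CPM and 97.1, 121, 101 and 135 CPM, highest in SmoM2 4. Adamtsl5, also a microfibril-associated protein, was at 92.4, 115, 109.6 and 70.3 CPM and 127, 101, 81.0 and 92.7 CPM, with control 4 the lowest. For Adamtsl1 the values were 73.2, 100.01, 88.0 and 59.5 CPM and 59.1, 83.4, 77.7 and 72.9 CPM, where SmoM2 1 and control 4 were nearly equal at the bottom. Adamtsl3 was at 43.8, 92.5, 84.3 and 28.3 CPM and 73.2, 100.1, 47.2 and 149.8 CPM, a 5.28-fold range with control 4 the lowest and SmoM2 4 the highest. Its log2 fold change was 0.57 (from -0.44 to 1.58), and 0.24 without SmoM2 4 and 0.33 without control 4.

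Compared per length, as CPM per kb of exon in the GENCODE M21 annotation, the order was not that of the CPM values. Timp2 came first at 632 ± 53.7 (SD over 8 libraries), ahead of Mmp2 at 448 ± 86.1, Timp3 at 401 ± 61.9 and Adamts1 at 307 ± 83.0. Mmp3 at 172 ± 43.1 and Adamts2 at 110.4 ± 25.1 followed, then Adamtsl2 at 100.3 ± 22.6, Mmp14 at 73.2 ± 7.94, Adamts10 at 65.4 ± 8.77 and Adamts15 at 63.8 ± 26.2. Timp1, with 0.888 kb of exon, came next at 52.8 ± 13.5. Timp2 exceeded Mmp2 in 8 of 8 libraries and Mmp2 exceeded Timp3 in 7 of 8. The ranges over the 8 libraries overlapped for every pair of neighbours among these 10 genes. Within a library the order was the same throughout for some: Adamts1 exceeded Mmp3 and Mmp14 exceeded Adamts10 in 8 of 8 libraries as well. Further down, the first neighbours in the order whose ranges did not overlap were Adamtsl1 and Adamts3. Annotated exon length overstates the length of genes with long alternative exons, and the isoforms in use were not measured.

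Of the 33 members with a mean of at least 5 CPM, 17 differed by at least 2-fold between the lowest and highest of the 8 libraries. Within the controls 13 of the 33 did, within the SmoM2-labelled libraries 8 did, and 6 did in both groups: Mmp9, Mmp16, Adamts4, Adamts15, Adamts19 and Adamtsl3. These 6 also had the largest SDs over the 8 libraries on the log2 scale among the 33: Mmp9 (1.003), Adamts19 (0.85), Adamtsl3 (0.77), Adamts4 (0.71), Adamts15 (0.64) and Mmp16 (0.62). The most common set of 4 highest libraries among the members was control 2 and SmoM2 1, 2 and 4. Timp2, Adamts5, Mmp16, Adamts6 and Adamts16 shared this set, 11.9% of the tested members against 2.58% of all genes tested. The set was picked for being the most common among the members, which by itself raises its share above that of all genes. Adamts16 lay below 1 CPM and Timp2 varied little between libraries, so their order of libraries is uncertain. The fibroblast markers were highest in the 4 libraries of this set (57782 CPM in control 2 and 69192, 57987 and 60299.8 CPM in SmoM2 1, 2 and 4, against at most 57523 CPM elsewhere). By mean log2 CPM so were the matrix substrates and the further proteases. By summed CPM the match did not hold for either list. Control 1 exceeded SmoM2 4 for the substrates (47491.5 against 45574 CPM), and control 3 exceeded control 2 for the proteases (8943 against 8054 CPM). The substrates share Col1a1 and Col1a2 with the fibroblast markers and Acan and Comp with the cartilage markers. The cartilage markers were highest in the 4 libraries of this set too. All 10 of 10 had a log2 fold change above 0 with a median of 0.60 and 0 called by edgeR, and none was at 0 in any library. The part of any of these in the members' levels was not tested. Adamts1, Adamts4, Adamtsl3 and Adamts20 shared control 2, control 3, SmoM2 2 and SmoM2 4, a set also picked for its count among the members. It held 9.52% of the members against 4.15% of all genes.

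Stromal inflammatory genes had a mean log2 CPM of 6.61, 7.53, 7.79 and 6.46 in control libraries 1 to 4 and of 7.07, 7.93, 6.66 and 7.27 in SmoM2-labelled libraries 1 to 4, so the same 4 libraries were highest by this measure, as they were for pericyte markers. By summed CPM, which the most abundant genes dominate, SmoM2 1 (3927 CPM) stood above SmoM2 4 (2799 CPM) for the inflammatory genes, so the match did not hold for SmoM2 4. For the pericyte markers, SmoM2 1 (1438 CPM) and SmoM2 3 (1211 CPM) stood above SmoM2 4 (1202 CPM) and control 3 (1177 CPM) by summed CPM. Of the 12 inflammatory genes 6 lay above 0 and 6 below in log2 fold change, with a median of 0.02. Highest in CPM were Socs3, a feedback inhibitor of cytokine signalling, at 1192 ± 168 and 1141 ± 244 CPM and Ptgs2, the inducible prostaglandin synthase, at 703 ± 345 and 638 ± 312 CPM. The part of inflammatory state in the ADAMTS levels was not tested. Adamtsl2 and Adamts17 shared control 1, control 4, SmoM2 1 and SmoM2 3, the most common set over all genes, with 5.09%.

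**Figure D4:**
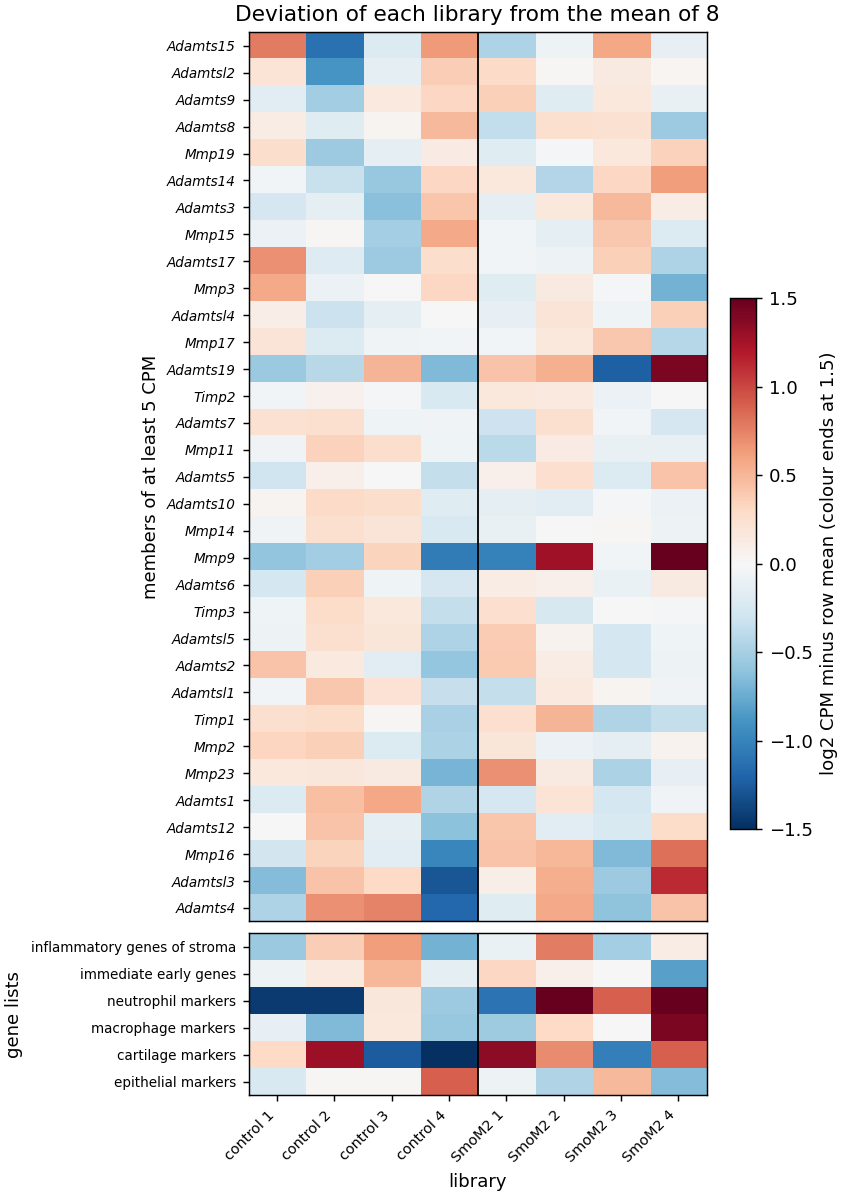
Log2 CPM of each library minus the mean of the 8 (colour) for the 33 members of at least 5 CPM (upper rows, ordered by control 4 minus control 2) and for 6 gene lists (lower rows, mean log2 CPM). Columns are libraries, with controls left of the line. Adamts4 and Adamtsl3 are high in control 2, control 3, SmoM2 2 and SmoM2 4 and low in control 4, while Adamts15 is lowest in control 2.

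A list of further proteases, activators and inhibitors that act at or outside the cell surface was counted beside the members. Of the 35 tested, 26 had log2 fold changes above 0 and 9 below, with a median of 0.13 and 0 called by edgeR or DESeq2. At an unadjusted p under 0.05 edgeR counted 1, Pcsk5, a proprotein convertase, at 146, 108, 124 and 195 CPM in the controls and 177, 214, 198 and 200.5 CPM in the SmoM2-labelled group. The groups overlapped through control 4 and SmoM2 1. The 2 highest in CPM were Cst3, the cathepsin inhibitor cystatin C, at 1345 ± 171 and 1421 ± 111.8 CPM and Ctsb, a lysosomal cysteine protease, at 933 ± 83.6 and 975 ± 71.1 CPM. Of the 19 tested matrix substrates, 12 lay above 0 and 7 below, with a median of 0.18, 0 called and 1, the basement membrane gene Nid1, at an unadjusted p under 0.05 in edgeR (972 ± 136 and 1354 ± 324 CPM). The substrates highest in CPM were Thbs1, the matricellular protein thrombospondin 1, at 8336 ± 4297 and 7799 ± 2402 CPM, and Col3a1, at 7017 ± 2363 and 6908 ± 1116 CPM.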

How the data were processed

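The authors deposited 1 table of expected counts (estimated counts) by Ensembl identifier. The tools FastQC, HISAT, StringTie and DESeq and the build mm10 stand in the submitters' processing notes without roles. These deposited values were whole numbers, so no rounding was needed. Their most frequent value above 0 was 5, and 1 fragment was assumed to give 5 units, which could not be settled from the table. Per the file headers, the authors' table gives normalised mean signal, fold change (ratio), log2 fold change and p-values. Its group means matched the counts divided by median-of-ratios size factors (largest relative difference 4.98e-10), so it reads as SmoM2 over control. Columns were matched to groups by name.

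The main test was edgeR 4.0.16 (R 4.3.3): quasi-likelihood, TMM, filterByExpr, group as sole term, adjusted p under 0.05 over all 20162 genes. SEs were derived from the fold change and its F statistic. On simulated data with known changes it recovered 1 of 50 genes changed 1.5-fold and 24 of 50 changed 2-fold. At 3-fold it recovered 40 of 50 and at 4-fold 44 of 50, with 5 false calls among 20162 genes. The changed genes were drawn from all genes above 1 CPM and were only raised, in the SmoM2-labelled libraries. These rates are not those of the members, whose spread was larger. Their median SD was 0.43 log2 units in control and 0.33 in SmoM2-labelled libraries, against 0.32 and 0.29 over all genes tested. Alternatives were DESeq2 1.42.0, limma-voom (limma 3.58.1), other factors, no filter, values divided by 5 and each library left out. List levels are mean log2 CPM (prior count 2). Promoters are RefSeq windows of GRCm38.p6, and coordinates are from GENCODE M21 of the same build, 1-based.

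Named were members of at least 20 CPM, the 6 of smallest p, any called, the 6 of largest SD among those of at least 5 CPM, and, of each other gene list, any called and the 2 of highest CPM. Members and lists were chosen with earlier results of these data known. Named outside this rule, after their values were seen, are the genes given by ranges, and Mmp25, Mmp12, Nid1, Pcsk5 and the genes that overlap members.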

Additional observations from a re-analysis of the deposited data

Results flagged for a closer look

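In 58 groups of 4 libraries (29 named members, control and SmoM2-labelled), 2 held a library far from the other 3, where chance flags about 1 in 20 groups. Mmp23 in control 4 was at 32.7 CPM, while the other controls lay between 58.2 and 59.9 CPM. Adamts19 in control 3 was at 14.3 CPM, while the other controls lay between 6.35 and 7.55 CPM. Neither gene was called with or without these libraries.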

How the results depend on the processing

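No member was called by edgeR as reported or in any of the 13 alternatives, and the lowest adjusted p of a named member under an alternative was 0.148, for Mmp8 in DESeq2. Over all genes DESeq2 called 32 higher and 37 lower, where edgeR called 0 of each with 756 genes at an unadjusted p under 0.05. Leaving out a library gave 0 genes called higher and 0 to 1 lower, the 1 being without SmoM2 4. In limma-voom 2 named members changed direction: Adamts4 had a log2 fold change of 0.11 and Timp1 of -0.022. With single libraries left out, the log2 fold change crossed 0 for Timp3 (-0.13 to 0.071), Mmp2 (-0.17 to 0.084), Adamts2 (-0.090 to 0.23), Adamtsl2 (-0.038 to 0.33), Adamts15 (-0.43 to 0.089), Adamts4 (-0.29 to 0.24), Adamts9 (-0.047 to 0.22), Mmp19 (-0.011 to 0.25), Adamtsl5 (-0.083 to 0.14), Adamts17 (-0.32 to 0.094), Mmp23 (-0.13 to 0.29), Timp1 (-0.19 to 0.14) and Adamts12 (-0.019 to 0.32). Mmp8 stayed between 1.19 and 1.87. The cause of these changes was not tested. No paired analysis was possible because the titles give no number shared between the groups. Depth limits the rarest members, of which 5 had too few counts to be tested.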

Other observations

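Of the 25 members with a mean of at least 20 CPM, 17 (68.0%) had a larger SD of log2 CPM in control, against 56.5% of all tested genes at that level. The median SD of these members was 0.36 log2 units in control and 0.27 in SmoM2-labelled libraries, against 0.17 and 0.15 over all genes of at least 20 CPM. No test was made of this difference.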
